A study of Mus musculus with 28 samples.

Results

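The genes described here are 46 genes of the G2 phase and of mitosis, chosen by name for their roles in cell division and grouped by those roles. All 46 were found under their own symbols among the 23382 genes listed for each library, and all 46 passed the filter on low values in every comparison. The RNA came from germinal center B cells of mice, in 28 RNA-seq libraries, and the study asks what alleles of Tbl1xr1 do to these cells. The TBL1XR1 protein belongs to the SMRT/NCOR corepressors that the repressor BCL6 recruits. Every group carried 1 copy of Cg1Cre, which expresses Cre recombinase in B cells that respond to antigen. The D370Y group was heterozygous for Tbl1xr1 D370Y (5 libraries) and the WT group had unmutated Tbl1xr1 (3 libraries). The ImuBcl6 D370Y group (5) added an ImuBcl6 allele, which expresses Bcl6 from the immunoglobulin heavy-chain locus, to the heterozygous D370Y genotype, and the ImuBcl6 group (5) had that allele with unmutated Tbl1xr1. The group labelled KO was homozygous for the Tbl1xr1 KO allele (5), and its Cre control (5) had the same genotype label as WT. For these last 10 libraries the labels name a stranded TruSeq kit, and for the other 18 they name none. No age or immunization is given in the labels, and nothing there says which animal gave which library. Each p-value therefore measures the spread between these libraries, which may be technical in part.

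Germinal center B cells are among the fastest dividing cells of the body. Most of their divisions take place in the dark zone, and cells that leave the germinal center as memory cells leave the cycle. Mitotic genes are held silent in resting cells by the DREAM complex. In G2 they are switched on by B-MYB with the MuvB core and then by FOXM1. These factors act through the cell cycle homology region (CHR) of the promoters, many of which also hold CCAAT boxes. The RNA and protein of mitotic genes are removed again as cells leave mitosis. Their level in a population thus depends in part on the share of cells in late S, G2 and M phase. The summed CPM values given below were not tested as a measure of that share.

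To show those promoter elements, the members were matched by symbol to the RefSeq promoter windows of GRCm38.p6, which hold 250 bases before and 50 bases after each gene start. Of the 46 members, 37 matched. The CHR core TTTGAA was present, on either strand, in the windows of 29 of the 37 members (78.4%) and of 20.2% of the 27025 genes in the table. The CCAAT box CCAAT was present in 29 of the 37 (78.4%) against 41.1% of all genes, and both motifs stood in 1 window in 25 of the 37 (67.6%) against 7.97%. In the stretches printed below the 2 motifs do not overlap each other. Ccna2, Cdc25c, Foxm1, Aurkb, Incenp, Tpx2, Dlgap5, Kif20a and Smc4 had no matched window. A match describes the letters and does not show a bound site. The 150 bases before the start are printed for 6 members that the results below turn on, with the 2 motifs (either strand) in capitals. Each printed stretch lies outside the gene as GENCODE M21 places it. Bub1b and Racgap1 were lower with D370Y on the ImuBcl6 background, and their CHR cores lay outside the bases printed. Top2a, Mki67 and Kif11 were low in the Cre control and KO libraries, and Hmgb2 was high there.
Bub1b, chr2:118598061-118598210, plus strand: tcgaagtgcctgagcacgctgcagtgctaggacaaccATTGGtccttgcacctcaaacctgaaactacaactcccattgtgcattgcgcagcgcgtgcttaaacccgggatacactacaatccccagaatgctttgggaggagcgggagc
Racgap1, chr15:99651657-99651806, minus strand: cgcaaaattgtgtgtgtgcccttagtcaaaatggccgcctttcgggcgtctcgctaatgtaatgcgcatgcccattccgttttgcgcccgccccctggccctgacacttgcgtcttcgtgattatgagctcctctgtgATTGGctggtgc
Top2a, chr11:99024190-99024339, minus strand: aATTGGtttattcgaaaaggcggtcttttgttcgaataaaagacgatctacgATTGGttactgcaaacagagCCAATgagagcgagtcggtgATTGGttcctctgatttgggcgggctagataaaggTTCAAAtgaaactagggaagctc
Mki67, chr7:135716380-135716529, minus strand: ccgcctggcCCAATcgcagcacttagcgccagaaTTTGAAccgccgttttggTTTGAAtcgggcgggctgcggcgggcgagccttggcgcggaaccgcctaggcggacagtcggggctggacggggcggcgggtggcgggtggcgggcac
Kif11, chr19:37376232-37376381, plus strand: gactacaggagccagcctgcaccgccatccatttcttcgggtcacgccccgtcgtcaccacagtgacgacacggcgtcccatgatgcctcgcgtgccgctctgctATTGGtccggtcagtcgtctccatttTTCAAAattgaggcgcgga
Hmgb2, chr8:57511693-57511842, plus strand: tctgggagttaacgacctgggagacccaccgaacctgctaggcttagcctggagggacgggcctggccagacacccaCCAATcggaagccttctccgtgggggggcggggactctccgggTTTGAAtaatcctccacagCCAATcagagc

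The libraries held 19.0 to 37.7 M reads on listed genes, and 3 reads correspond to 0.0640 to 0.133 CPM, the authors' unit of read counts scaled to a common library total. All members were far above that limit, the lowest value being 4.51 CPM for Kif20b. Tbl1xr1 itself was at 134.95 to 164.98 CPM in D370Y and 156.4 to 175.9 CPM in WT libraries. It was at 94.7 to 101.4 CPM with ImuBcl6 D370Y and 106.4 to 158.96 CPM with ImuBcl6. In the libraries labelled KO it was at 89.7 to 127 CPM, not below the 80.6 to 94.5 CPM of the Cre control. The gene-level value does not show which exons the allele lacks, so it does not check that label. Bcl6 was at 522.3 to 589.7 CPM in ImuBcl6 and 358.0 to 366.1 CPM in WT libraries. With ImuBcl6 D370Y it was at 422.3 to 511.7 CPM, below every ImuBcl6 library. In the limma fit described below, Bcl6 (log2 difference -0.24, adjusted p = 0.0344) and Tbl1xr1 (-0.37, adjusted p = 0.0261) were both lower in ImuBcl6 D370Y than in ImuBcl6. The part of these in the mitotic values was not tested. KO replicate 3 stood apart: 64.4% of its authors' denominator fell on listed genes, against 78.7% to 84.6% in the other 27 libraries, so the KO comparison is given with and without it. The D370Y and ImuBcl6 libraries all had the Xist pattern of sex chromosome genes, and the WT and ImuBcl6 D370Y libraries all had the Y pattern. In both D370Y comparisons genotype thus cannot be told apart from sex. Of the KO libraries 3 had the Y pattern and 2 the Xist pattern, against 1 and 4 of the Cre control libraries, so sex was not balanced there. Of 10 germinal center B cell markers all 10 were detected in every group, at a summed 4516 to 6912 CPM.

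In WT cells the members ranged widely in level. On the CPM scale divided by transcript length, Top2a, the topoisomerase that untangles sister chromatids, had the highest mean at 228.4 CPM per kb. Mki67, the coat protein of mitotic chromosomes known as the Ki-67 antigen, followed at 179.4, and Ccnb2, a mitotic cyclin, at 149.02. Anln, the anillin of the cleavage furrow, was lowest at 13.1 CPM per kb. Replicates agreed closely in that group: the median coefficient of variation over the 46 members was 4.85%, with the lowest at 0.261% for Aurkb. In KO libraries the same median was 18.3%, and the highest value was 102% for Kif20b, a motor of late cytokinesis. Without KO replicate 3 these were 8.75% and 42.7%.

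Some mitotic genes were lower with D370Y on the ImuBcl6 background, by small amounts. By limma on log2(CPM + 1), with Benjamini-Hochberg adjustment over all 10784 genes tested and a threshold of 0.05, 10 of the 46 members were called lower and 0 higher in ImuBcl6 D370Y against ImuBcl6 cells. Over all genes tested, 8.18% were called, 5.38% as lower. For 9 of the 10 called members every ImuBcl6 D370Y library lay below every ImuBcl6 library, a separation found downward in 5.64% of all genes. The called members were Foxm1, Cdc25b, Espl1, Bub1b, Aurkb, Cdca8, Incenp, Kif2c, Racgap1 and Ncapd2, which cover mitotic entry, the spindle checkpoint, the chromosomal passenger complex, the spindle, cytokinesis and condensin. At an unadjusted p below 0.05 there were 16 members, all lower, where 23.9% of all genes passed that limit and 14.1% as lower. Over the 46 members 40 differences were below 0, and their median log2 difference was -0.12 against -0.01 over all genes, of which 52.1% were below 0. The lowest difference was that of Foxm1, at -0.41. In bulk RNA fewer dividing cells and less mitotic RNA per cell cannot be told apart.

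Among the mitotic entry genes, Foxm1 (chromosome 6, 128362967 to 128376146), the transcription factor that drives G2/M genes, was at 153, 139.5, 158, 129 and 147 CPM in the 5 ImuBcl6 libraries and 102, 100.4, 102, 119 and 121 CPM in the 5 ImuBcl6 D370Y libraries. The groups did not overlap, and 3 of the ImuBcl6 D370Y libraries lay close together near the bottom. Its log2 difference was -0.41 ± 0.07 (SE, adjusted p = 0.00618 by limma). Cdc25b (chromosome 2, 131186949 to 131198497), a phosphatase that activates CDK1 at mitotic entry, was at 437, 411, 499, 414 and 440.3 CPM with ImuBcl6 and 350.0, 369, 301, 416 and 369.6 CPM with ImuBcl6 D370Y. 1 ImuBcl6 D370Y library lay above 2 ImuBcl6 libraries and the rest did not overlap. The log2 difference was -0.29 ± 0.08 (SE, adjusted p = 0.0448 by limma). Of the 10 calls that of Cdc25b was lost most often, in 7 of the 12 alternative settings of the fit and when any of 9 of the 10 libraries was left out, with adjusted p-values from 0.0539 to 0.125.

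Plk1, the Polo-like kinase that acts at entry and again at the spindle, did not pass the threshold. It was at 155, 184, 174, 165 and 176 CPM with ImuBcl6 and 133, 131, 145, 164 and 162 CPM with ImuBcl6 D370Y, with overlap in the middle of the range. The log2 difference was -0.22 ± 0.08 (SE, adjusted p = 0.0902 by limma). Cdk1, the kinase whose activation starts mitosis, was at 249, 251, 224, 249 and 262 CPM with ImuBcl6 and 232, 230.0, 241, 243 and 231 CPM with ImuBcl6 D370Y. Its replicates were tight and the groups overlapped, so that the 95% interval of its log2 difference ran only from -0.18 to 0.04. Its partner Ccnb1 (cyclin B1) was at 70.4, 67.6, 54.8, 57.1 and 54.3 CPM in ImuBcl6 and 62.4, 58.4, 54.8, 58.2 and 52.2 CPM in ImuBcl6 D370Y libraries, with overlap and an interval from -0.26 to 0.10. Ccna2, Ccnb2 and Cdc25c, the other cyclins and the other phosphatase of the group, had log2 differences of -0.09, -0.12 and -0.05 and were not called.

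In the checkpoint and anaphase group, Espl1 and Bub1b were called. Espl1 (chromosome 15, 102296266 to 102324357) encodes separase, the protease that cuts cohesin at anaphase. It was at 118, 134, 116, 112 and 111 CPM with ImuBcl6 and 82.8, 83.8, 91.7, 100.3 and 97.6 CPM with ImuBcl6 D370Y, and every library of the second group was lower. The log2 difference was -0.37 ± 0.07 (SE, adjusted p = 0.00825 by limma). Bub1b (chromosome 2, 118598211 to 118641591), the checkpoint protein BUBR1, was at 309, 295, 299, 270.2 and 287 CPM in ImuBcl6 and 242, 239, 243, 267 and 244 CPM in ImuBcl6 D370Y libraries. Those groups came closest between ImuBcl6 replicate 4 and ImuBcl6 D370Y replicate 4 and did not overlap. The log2 difference was -0.24 ± 0.05 (SE, adjusted p = 0.0157 by limma). Cdc20, the activator of the anaphase-promoting complex, was at 271, 281, 246, 268 and 272 CPM in ImuBcl6 and 234, 224, 252, 267 and 258 CPM in ImuBcl6 D370Y libraries, with overlap and a difference of -0.12 ± 0.06 (SE, adjusted p = 0.249 by limma). The checkpoint kinases Bub1 and Ttk and the checkpoint protein Mad2l1 lay between -0.04 and 0.03 on the log2 scale, with intervals that reached from -0.40 to 0.33. Ube2c, the ubiquitin-conjugating enzyme of the anaphase-promoting complex, had a log2 difference of -0.15 (adjusted p = 0.130 by limma).

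The chromosomal passenger complex, which corrects chromosome attachments and later guides cytokinesis, had 3 of its 4 measured subunits called. Aurkb (chromosome 11, 69045647 to 69051664), its kinase, was at 159, 168, 170.5, 169 and 171 CPM with ImuBcl6 and 142, 133, 145, 153 and 150.4 CPM with ImuBcl6 D370Y, a log2 difference of -0.21 ± 0.05 (SE, adjusted p = 0.0274 by limma). Cdca8 (borealin, chromosome 4, 124918465 to 124939311) was at 213, 220.3, 219, 224 and 231 CPM in ImuBcl6 and 189, 175, 189, 199 and 193 CPM in ImuBcl6 D370Y libraries, a difference of -0.23 ± 0.05 (SE, adjusted p = 0.0158 by limma). Incenp (chromosome 19, 9872296 to 9899551), the scaffold of the complex, was at 309.6, 303, 324, 296 and 311 CPM in ImuBcl6 and 248, 234, 263, 286 and 275 CPM in ImuBcl6 D370Y libraries, a difference of -0.24 ± 0.06 (SE, adjusted p = 0.0251 by limma). All 3 genes separated the groups without overlap. The 4th subunit, Birc5 (survivin), had a log2 difference of -0.04, with an interval from -0.14 to 0.06. Aurka, the Aurora kinase of the spindle poles, was at -0.18 with an adjusted p of 0.0567 by limma.

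**Figure D1:**
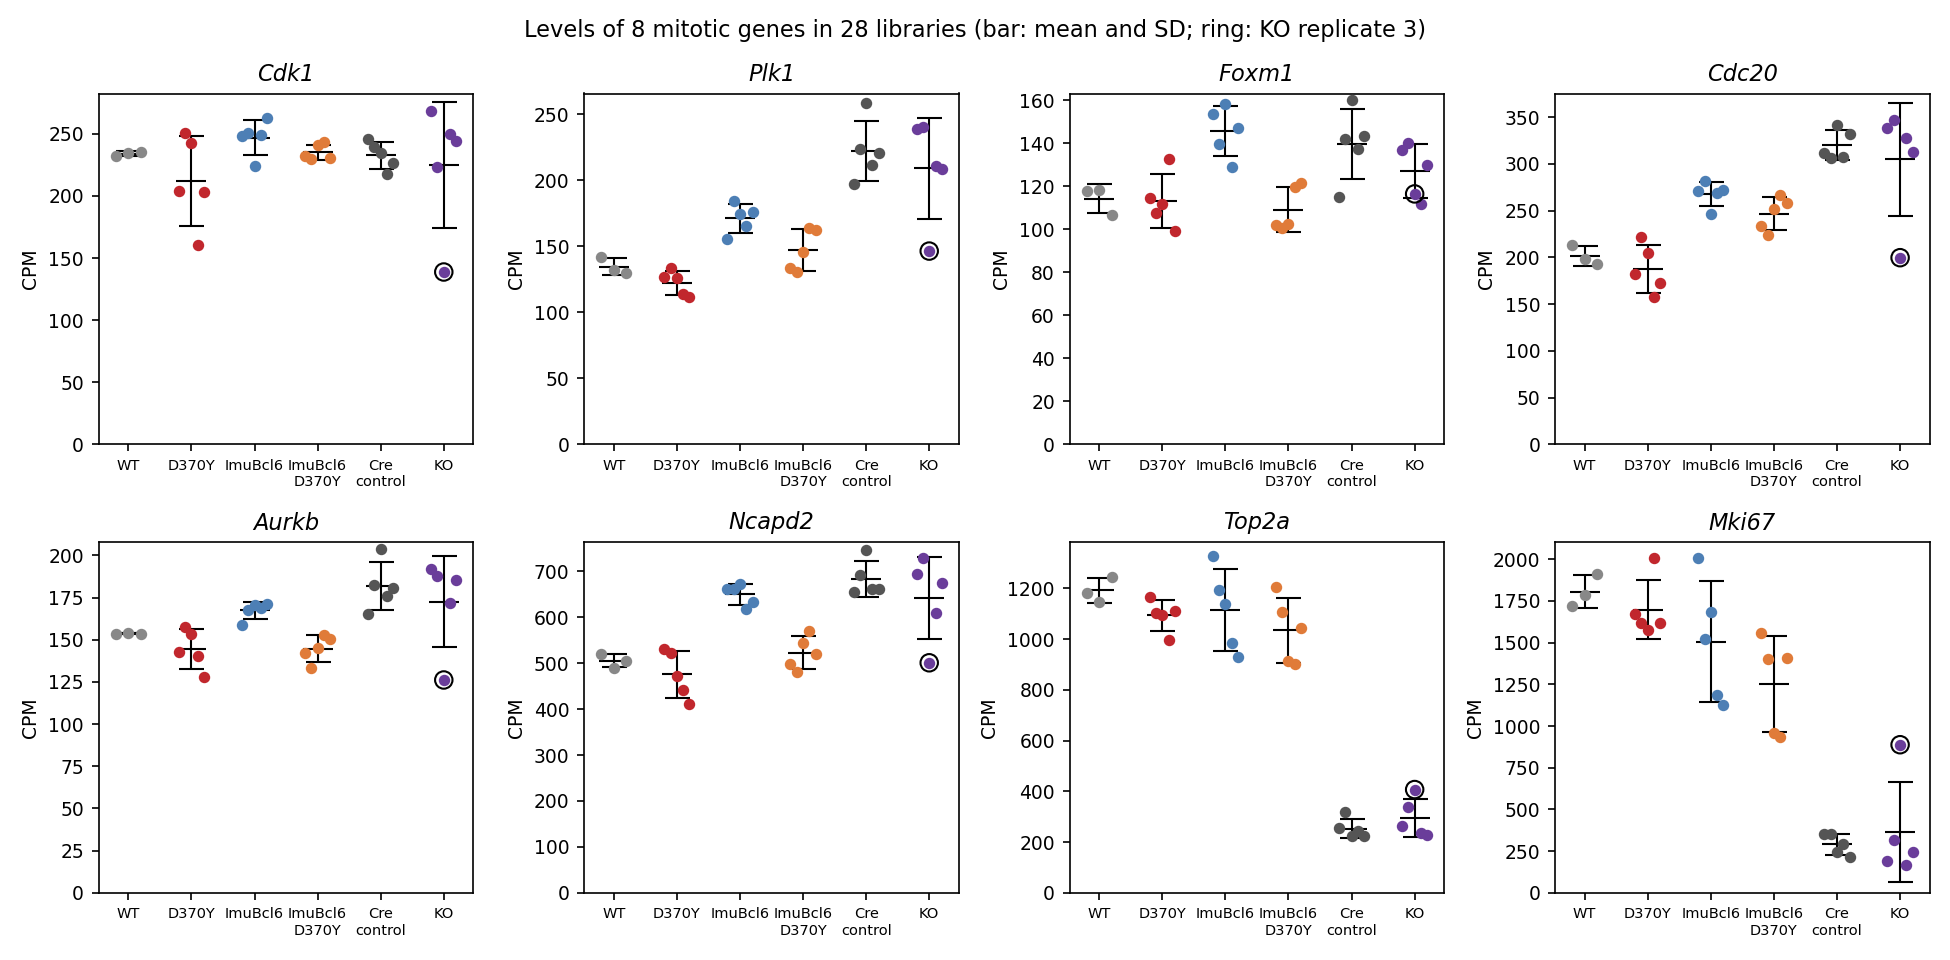
CPM (vertical axes, linear from 0) of 8 mitotic genes in each of the 28 libraries, by group, with the group mean and SD as bars and KO replicate 3 ringed. Foxm1, Aurkb and Ncapd2 lie lower in all ImuBcl6 D370Y libraries than in all ImuBcl6 libraries, while Top2a and Mki67 lie far lower in Cre control and KO libraries than in the other 4 groups.

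Of the spindle motors and assembly factors, Kif2c was called. Kif2c (chromosome 4, 117159639 to 117182639), a kinesin that depolymerizes microtubules at centromeres, was at 119.7, 116, 118, 107 and 112 CPM with ImuBcl6 and 100.3, 90.9, 93.6, 101 and 99.1 CPM with ImuBcl6 D370Y, without overlap. Its log2 difference was -0.24 ± 0.05 (SE, adjusted p = 0.0182 by limma). The other 7 genes of that group (Kif11, Kif4, Tpx2, Nusap1, Hmmr, Prc1 and Dlgap5) lay between -0.19 and 0.03. In the cytokinesis group, Racgap1 (chromosome 15, 99620496 to 99651656), the GTPase-activating subunit of centralspindlin, was at 283, 281, 273, 259 and 275 CPM with ImuBcl6 and 222, 213, 229.7, 254 and 240.3 CPM with ImuBcl6 D370Y. Those libraries did not overlap and the log2 difference was -0.24 ± 0.06 (SE, adjusted p = 0.0195 by limma). Kif23, the motor subunit of centralspindlin, was at -0.10 with an interval from -0.34 to 0.13.

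Ncapd2 (chromosome 6, 125168007 to 125191701), a subunit of condensin I, had the lowest adjusted p of the 46 genes. It was at 662, 662, 673, 619 and 634 CPM with ImuBcl6 and 498, 480.4, 545, 571 and 519 CPM with ImuBcl6 D370Y, and the groups were well apart. The log2 difference was -0.32 ± 0.06 (SE, adjusted p = 0.00535 by limma). Its partner subunits were not called. Ncapg was at 165, 131, 127, 102 and 99.7 CPM with ImuBcl6 and 143, 139, 96.3, 80.2 and 121 CPM with ImuBcl6 D370Y, with a wide spread in each group, and its log2 difference was -0.11 ± 0.17 (SE, adjusted p = 0.740 by limma). The condensin core ATPases Smc2 and Smc4 were at -0.04 and -0.11, with intervals from -0.49 to 0.41 and from -0.59 to 0.37.

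Top2a and Mki67 also varied widely between replicates and were not called. Top2a (chromosome 11, 98992943 to 99024189) was at 1327, 1193, 1137, 986 and 928 CPM with ImuBcl6 and 1205, 1106, 913, 901 and 1045 CPM with ImuBcl6 D370Y. Mki67 (chromosome 7, 135689784 to 135716361) was at 2006, 1521, 1684, 1189 and 1125 CPM in ImuBcl6 and 1558, 1401, 958, 935 and 1405 CPM in ImuBcl6 D370Y libraries. Both genes overlapped broadly, with differences of -0.10 ± 0.10 (SE, adjusted p = 0.599 by limma) and -0.26 ± 0.18 (SE, adjusted p = 0.407 by limma). Hmgb2, a chromatin protein of dividing cells, had the only value above 0.1, at 0.15 ± 0.08 (SE, adjusted p = 0.298 by limma), from 244, 270.3, 229.9, 256 and 240.4 CPM in ImuBcl6 and 317, 283, 243, 239 and 296 CPM in ImuBcl6 D370Y libraries. The kinetochore genes Cenpa, Cenpe, Cenpf, Nuf2 and Ndc80 held no call, and 3 of the 5 had values above 0. Ndc80, the microtubule-binding core of the kinetochore, was highest among them at 0.06 (interval -0.24 to 0.37), from 73.2, 57.2, 58.6, 50.6 and 44.8 CPM in ImuBcl6 and 73.3, 66.0, 50.6, 45.9 and 61.7 CPM in ImuBcl6 D370Y libraries.

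**Figure D2:**
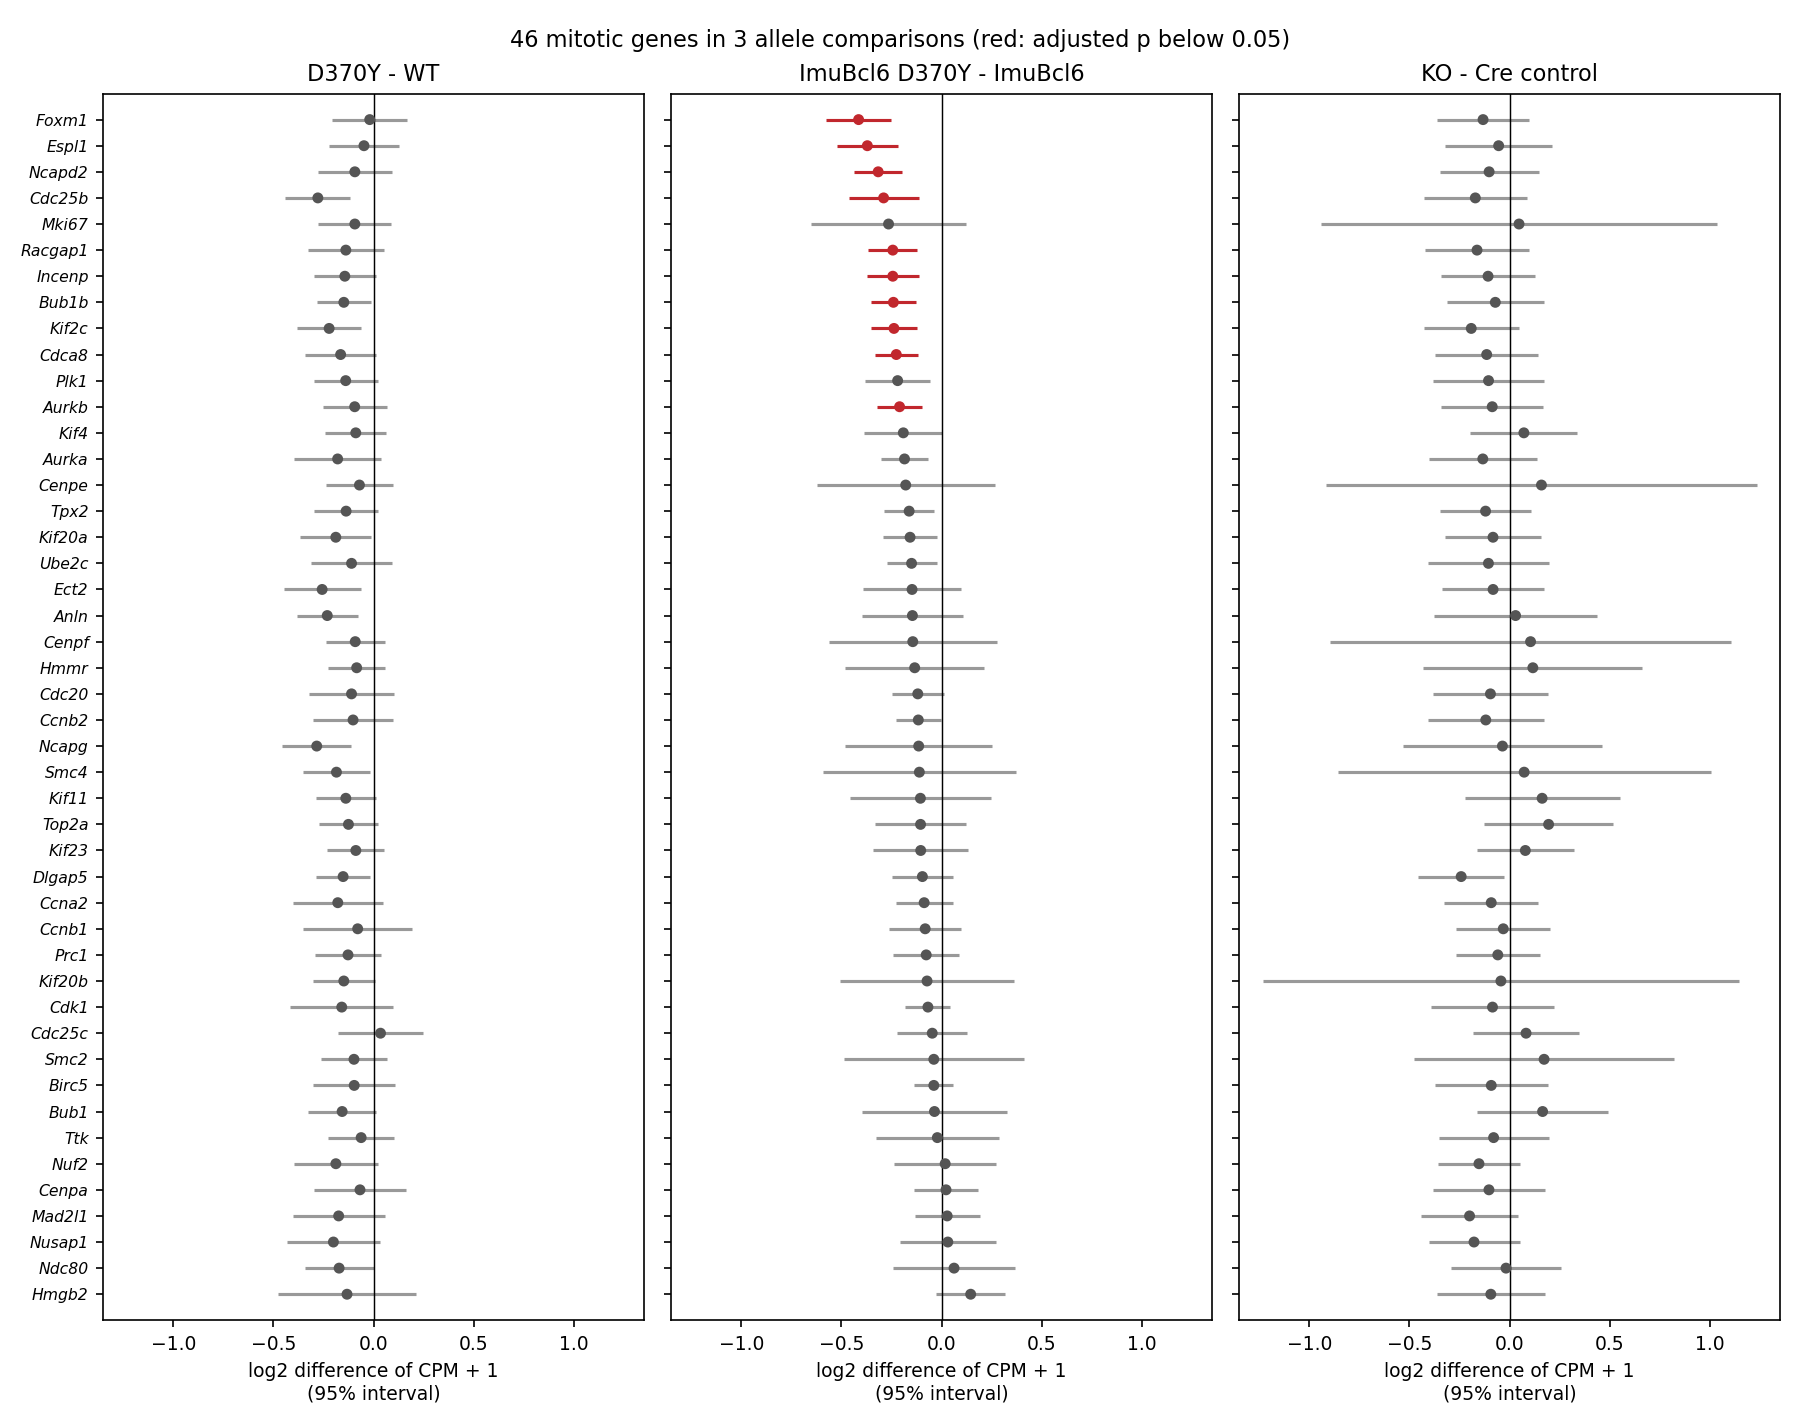
Log2 difference of CPM + 1 (horizontal axes) with its 95% interval for the 46 genes (rows, ordered by the middle panel) in the 3 allele comparisons, called genes in red. The 10 called genes are all in the middle panel and all below 0, while the left panel lies almost wholly below 0 without a call and the right panel has the widest intervals.

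The called members shared a feature that the choice of genes did not use: a high GC content of the transcript. The 46 members were divided at their median transcript GC content of 46.4%, a division made after seeing the data. Of the 23 members above it 10 were called, with a median log2 difference of -0.21. Of the 23 members below it 0 were called and 0 had an unadjusted p below 0.05, with a median of -0.09 and the widest interval from -0.59 to 0.37 (Smc4). Over all genes tested, 499 of 7381 genes above that GC content and 76 of 3300 below it were called lower. Across the 46 genes the difference fell with GC content (Spearman -0.69, Pearson -0.70), whereas across all 10681 genes with a transcript model the values were -0.06 and -0.06. These are descriptions across genes that share libraries. The coefficient of variation within ImuBcl6 libraries ran from 2.50% for Birc5 (47.4% GC) to 31.4% for Smc4 (40.2% GC). With each library's trend on transcript GC content subtracted, an alternative chosen after seeing the data, 13 members were called, the 10 and Aurka, Ect2 and Plk1.

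The median of -0.12 was -0.05 without ImuBcl6 replicate 1 and -0.19 without ImuBcl6 replicate 5, and lay between these values when any other library was left out. Leaving out 1 library moved the count most for 3 libraries: it was 5 without ImuBcl6 D370Y replicate 2, 6 without ImuBcl6 D370Y replicate 3 and 6 without ImuBcl6 replicate 3. It was 3 in a fit of all 28 libraries, where Foxm1, Espl1 and Ncapd2 were called. Markers of other cells moved in the same comparison. Of 8 memory and naive B cell markers 5 were called higher, with a summed 363.4 to 482.1 CPM in ImuBcl6 D370Y and 259.1 to 324.1 CPM in ImuBcl6 libraries. Of 5 dark zone markers 4 were called lower, from 1475 to 1683 CPM in ImuBcl6 to 1008 to 1345 CPM in ImuBcl6 D370Y libraries. Of 7 tested myeloid markers 4 were called higher, at 163.9 to 246.4 against 120.1 to 163.5 CPM, and both T cell markers tested, Cd2 and Cd3g, were called higher, with the list of 6 at 174.9 to 221.6 against 122.1 to 149.4 CPM. No myeloid or T cell marker was at 0 in all libraries of a group. The part of these markers in the mitotic values was not tested.

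Without ImuBcl6, the mitotic genes of D370Y cells lay slightly below those of WT cells, and 0 of the 46 passed the threshold by limma (3.55% of all 10600 genes tested were called, 0.943% as lower). At an unadjusted p below 0.05 there were 9 members, all lower, while 18.3% of all genes passed that limit, 8.16% as lower. By edgeR 0 were called and by DESeq2 2, Cdc25b and Ncapg. Of the 46 differences 45 were below 0, against 54.4% of all genes, and the median was -0.14 against -0.02. The members share these libraries and are not independent, so the count of signs describes them and is no test. The whole set of differences was narrow, from -0.28 to 0.03, and 10 members had every D370Y library below every WT library (7.27% of all genes).

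Ncapg had the lowest difference: it went from 243, 248 and 273 CPM in the 3 WT libraries to 216, 220.4, 206, 180.0 and 224 CPM in the 5 D370Y libraries, a log2 difference of -0.28 ± 0.08 (SE, adjusted p = 0.0753 by limma). Cdc25b was next, from 453, 448 and 444 to 399, 397, 382, 334 and 342 CPM, at -0.28 ± 0.08 (SE, adjusted p = 0.0632 by limma). Both separated the groups without overlap, and neither passed the threshold. Bub1b, at 294, 286 and 300.4 CPM in WT and 269, 277, 269.8, 247 and 261 CPM in D370Y libraries, and Kif2c, at 99.1, 96.1 and 98.6 CPM in WT and 83.9, 94.8, 84.3, 75.8 and 81.5 CPM in D370Y libraries, also did not overlap. Their log2 differences were -0.15 ± 0.06 (SE, adjusted p = 0.230 by limma) and -0.22 ± 0.07 (SE, adjusted p = 0.123 by limma). The cytokinesis genes Ect2, Anln and Kif20a were separated in the same way at -0.26, -0.23 and -0.19, with adjusted p-values of 0.140, 0.0981 and 0.245 by limma. Ect2 activates the GTPase RhoA at the cleavage furrow, and Kif20a is a motor of the central spindle.

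Several genes called on the ImuBcl6 background differed little here. Foxm1 was at 118, 118 and 106 CPM in WT and 114, 108, 112, 133 and 99.0 CPM in D370Y libraries, and the WT range lay inside the D370Y range. The interval of its log2 difference ran from -0.21 to 0.17. Espl1, at 115, 105 and 107 CPM in WT and 110.2, 114, 94.4, 114 and 95.2 CPM in D370Y libraries, and Ncapd2, at 519.5, 491 and 505 CPM in WT and 532, 522, 472, 441 and 411 CPM in D370Y libraries, overlapped as well, with intervals from -0.22 to 0.13 and from -0.28 to 0.09. Aurkb was at 153, 154 and 154 CPM in WT and 143, 158, 153, 140.2 and 128 CPM in D370Y libraries, with the WT values almost identical and 1 D370Y library above them. Incenp (-0.14), Cdca8 (-0.16) and Racgap1 (-0.14) all overlapped, the D370Y values being 257, 269, 259.9, 248 and 222 CPM, 189.8, 212, 207, 171 and 172 CPM and 201, 225, 213, 171 and 179 CPM in turn. Their WT values were 283, 268 and 279.6 CPM, 218, 211 and 209 CPM and 223, 218 and 209 CPM.

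Among the entry and exit regulators, Plk1 was lowest in another D370Y library, and Foxm1 and Espl1 were highest of the D370Y libraries in replicate 4. Cdk1, Ccnb1 and Cdc20 were lowest in D370Y replicate 4. In that library 78.7% of the authors' denominator fell on listed genes, against 81.9% to 82.4% in the other D370Y libraries. Cdk1 was at 232, 234 and 236 CPM in WT and 204, 251, 242, 160.1 and 203 CPM in D370Y libraries, so that WT lay inside the D370Y range and the 4th D370Y library was far below it. Ccnb1, at 38.5, 35.1 and 38.1 CPM in WT and 41.6, 39.6, 37.0, 25.5 and 34.4 CPM in D370Y libraries, and Cdc20, at 213, 198 and 193 CPM in WT and 182, 221, 205, 158 and 172 CPM in D370Y libraries, showed the same order. Plk1 was at 142, 132 and 129.5 CPM in WT and 127, 134, 126, 114 and 111 CPM in D370Y libraries. Log2 differences were -0.16, -0.08, -0.11 and -0.14 in turn, and the interval of Cdk1 reached from -0.42 to 0.10. Cdc25c, at 35.9, 34.4 and 34.3 CPM in WT and 36.4, 39.7, 38.7, 28.2 and 36.8 CPM in D370Y libraries, was the one member above 0, at 0.03. Mad2l1, at 195, 189 and 219.7 CPM in WT and 185, 192, 198, 138 and 184 CPM in D370Y libraries, had its lowest value in the same library.

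Mki67, like Foxm1 and Espl1, went the other way in that library. It was at 1719, 1783 and 1914 CPM in WT and 1669, 1618, 1576, 2006 and 1617 CPM in D370Y libraries, with replicate 4 the highest of all 8. Top2a, at 1182, 1148 and 1246 CPM in WT and 1164, 1102, 1095, 998 and 1110.4 CPM in D370Y libraries, had its lowest value there, and Hmgb2, at 127, 119 and 157 CPM in WT and 148, 128, 144, 86.5 and 113 CPM in D370Y libraries, likewise. The summed level of the 46 members was 9913 CPM in D370Y replicate 4, 10334 to 10997 CPM in the other D370Y libraries and 11267 to 12007 CPM in WT libraries. Without D370Y replicate 4 the median log2 difference was -0.09, and 2 members, Cdc25b and Ncapg, were called. In this comparison 7 of 8 memory and naive B cell markers were called higher, at a summed 554.4 to 765.4 CPM in D370Y and 405.9 to 449.7 CPM in WT libraries, the highest in replicate 4. Myeloid markers were called higher in 6 of 9, at 114.2 to 138.2 against 69.2 to 81.5 CPM, and 1 of 5 dark zone markers was lower. Their part in the mitotic values was not tested.

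In cells labelled KO, 0 of the 46 members were called against the Cre control (1.39% of all 10514 genes tested were called). At an unadjusted p below 0.05 there was 1 member, Dlgap5 (9.05% of all genes), and edgeR and DESeq2 called 0. The median log2 difference was -0.08 over the members and -0.06 over all genes, and 33 of 46 were below 0 against 69.8% of all genes. Without KO replicate 3, 0 were still called (449 of 10561 genes, 4.25%), 27 members lay below 0 and 19 above, and the median was -0.03 against 0.00 over all genes.

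Cdk1 was at 246, 239, 235, 218 and 226 CPM in the Cre control and 268, 223, 139, 250.1 and 244 CPM in the KO libraries. The 3rd KO value was far below all the others, and the remaining 4 lay in the Cre control range or above it. The log2 difference was -0.09 ± 0.15 (SE, adjusted p = 0.910 by limma), and 0.08 (interval -0.05 to 0.20) without replicate 3. Plk1, at 197, 224, 258, 212 and 220.5 CPM in Cre control and 239, 240.3, 146, 210.5 and 208 CPM in KO libraries, Cdc20, at 311, 306, 342, 308 and 331 CPM in Cre control and 338, 346, 199.5, 327 and 312 CPM in KO libraries, and Aurkb, at 165, 182, 204, 176 and 181 CPM in Cre control and 192, 188, 126, 172 and 185 CPM in KO libraries, had the same low 3rd value. Their log2 differences were -0.10, -0.10 and -0.09. Foxm1 was at 115, 142, 160.0, 137 and 143 CPM in Cre control and 137, 140.1, 116, 112 and 129.9 CPM in KO libraries, with broad overlap and a difference of -0.13 ± 0.11 (SE, adjusted p = 0.847 by limma).

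Other members were high in that library. Mki67 was at 353, 355, 244, 289.9 and 214 CPM in the Cre control and 191, 316, 888, 169 and 247 CPM in the KO libraries, so that the 3rd KO library was far above every Cre control library and the other 4 lay in or below the Cre control range. The interval of its log2 difference ran from -0.94 to 1.03, and the value was -0.35 without replicate 3. Top2a, at 255, 317, 225, 243 and 225 CPM in Cre control and 265, 339, 407, 235 and 228 CPM in KO libraries, and Smc2, at 30.8, 36.3, 22.6, 29.0 and 22.5 CPM in Cre control and 26.7, 36.4, 64.5, 19.9 and 24.3 CPM in KO libraries, were likewise highest in KO replicate 3. Kif20b was at 4.51, 10.7, 33.9, 4.69 and 7.01 CPM in KO libraries and had a difference of -0.04 with replicate 3 and -0.49 (adjusted p = 0.370 by limma) without it.

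Dlgap5, a microtubule-bundling protein of the spindle known as HURP, had the lowest p of the group. It was at 51.0, 56.5, 49.6, 46.9 and 58.2 CPM in the Cre control and 46.7, 50.8, 39.7, 44.0 and 40.1 CPM in the KO libraries, with some overlap, and the log2 difference was -0.24 ± 0.10 (SE, adjusted p = 0.426 by limma). Leaving out KO replicate 3 gave an adjusted p of 0.187. Mad2l1 followed, at 162, 153, 139, 145 and 144 CPM in Cre control and 149.7, 130.0, 98.0, 138 and 135 CPM in KO libraries and a difference of -0.20 ± 0.11 (SE, adjusted p = 0.698 by limma). Ccnb1, at 43.5, 38.2, 37.2, 33.1 and 40.4 CPM in Cre control and 41.8, 41.8, 29.4, 40.0 and 35.9 CPM in KO libraries, and Cdc25c, at 32.9, 27.8, 28.7, 22.8 and 28.2 CPM in Cre control and 34.3, 31.4, 21.4, 32.5 and 30.4 CPM in KO libraries, had values of -0.03 and 0.08. Among the genes called on the ImuBcl6 background, Ncapd2 was at 655, 691, 747, 663 and 662 CPM in Cre control and 694, 729, 501, 610.2 and 674 CPM in KO libraries and Espl1 at 121, 146, 167, 140.4 and 128 CPM in Cre control and 141, 176, 130.0, 111 and 123 CPM in KO libraries. All 10 of those genes overlapped between KO and Cre control, with differences from -0.19 (Kif2c) to -0.05 (Espl1). Memory and naive B cell markers were called higher in 3 of 8, at a summed 352.8 to 496.2 CPM in KO and 294.4 to 350.7 CPM in Cre control libraries. Dark zone markers were called lower in 1 of 5, at 1029.8 to 1389.7 against 1484 to 1581 CPM, and myeloid markers were called in 0 of 9. Their part in the mitotic values was not tested.

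The differences between these effects were tested directly. For D370Y with ImuBcl6 against D370Y without it, limma called 0 of 46 members (0.663% of 11166 genes), and edgeR and DESeq2 called 0. The 3 members with an unadjusted p below 0.05 (12.3% of all genes) were Foxm1, Espl1 and Ncapd2, all with the lower value on the ImuBcl6 background. The difference of effects was -0.40 ± 0.12 (SE, adjusted p = 0.149 by limma) for Foxm1, -0.32 ± 0.11 (SE, adjusted p = 0.225 by limma) for Espl1 and -0.22 ± 0.10 (SE, adjusted p = 0.379 by limma) for Ncapd2. The calls on the ImuBcl6 background are therefore not shown to differ from the effect without that allele. The sex pattern runs in opposite directions in these pairs, with Xist in D370Y and ImuBcl6 and Y in their counterparts. Genotype and sex thus cannot be told apart in this difference of effects either. The median over the members was -0.00, with 24 below 0 and 22 above (51.5% of all genes below). For the KO effect against the D370Y effect, 0 of 46 were called by limma, edgeR or DESeq2 (0.145% of 11041 genes by limma), 0 had an unadjusted p below 0.05 (6.14% of all genes), and the median was 0.05 (0.11 without KO replicate 3). The largest values were for Bub1 and Top2a, at 0.32 each, with intervals from -0.10 to 0.74 and from -0.08 to 0.73.

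Between the control groups the members moved far more than with any Tbl1xr1 allele. Cre control and WT cells carry the same genotype label, yet 39 of the 46 members were called between them, 13 higher and 26 lower in the Cre control, where 38.3% and 38.9% of all 10720 genes were called higher and lower. The 2 groups also differ in the library kit as described and in depth (19.0 to 19.4 against 30.0 to 32.0 M reads), and these cannot be told apart. The fall was largest for Smc4, a condensin ATPase, at 490.0, 481 and 576 CPM in WT and 58.3, 63.6, 39.7, 47.5 and 33.3 CPM in Cre control libraries, a log2 difference of -3.42 ± 0.21 (SE, adjusted p = 8.4e-07 by limma). Mki67 (-2.66) and Top2a (-2.24) fell too, with no overlap of the values given above. Kif20b, Smc2, Cenpe, Hmmr and Cenpf fell, with log2 differences from -3.23 to -2.82.

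Other members were not called or rose. Cdk1 had a log2 difference of -0.01 with an interval from -0.11 to 0.10, and Ccnb1 of 0.04. Plk1 rose by 0.72, Cdc20 by 0.66, Ube2c by 0.46 and Ncapd2 by 0.43, each without overlap (35.3% of all genes were separated upward and 37.7% downward). All 5 genes of the Aurora kinase and passenger group were called higher, from 0.17 (Birc5) to 0.27 (Aurka). Hmgb2 rose most, from 127, 119 and 157 CPM in WT to 320.1, 332, 295, 288 and 320.1 CPM in Cre control libraries, at 1.21 ± 0.08 (SE, adjusted p = 1.11e-08 by limma). So members of 1 complex were split: of condensin I, Ncapd2 rose while Ncapg, Smc2 and Smc4 fell, at -2.54, -2.98 and -3.42.

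The split followed the base composition of the transcripts. Of the 23 members below 46.4% GC, 21 were called lower and the median log2 difference was -1.80. Of the 23 above it, 12 were called higher and 5 lower and the median was 0.17. Across the 46 members the difference rose with GC content (Spearman 0.75, Pearson 0.72) and fell with transcript length (Spearman -0.54). Across all 10615 genes with a transcript model the Spearman values were 0.74 and -0.38. The medians over all genes below and above 46.4% GC were -0.84 and 0.22. With the GC trend of each library removed, the members' median went from -0.47 to -0.11, and 11 members were called higher and 23 lower. Hmgb2, with the lowest GC content of the 46 at 38.7%, and Ccnb1, at 44.2%, stood outside the trend. In the same comparison memory and naive B cell markers were called lower in 6 of 8, while Klf2 of that list was called higher (0.27). Dark zone markers were called lower in 4 of 5. Myeloid markers were called higher in 7 of 9, while Mpeg1 of that list was called lower (-0.83). The part of these in the mitotic values was not tested. Of the 5 Cre control libraries 4 had the Xist pattern, and all 3 WT libraries the Y pattern.

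**Figure D3:**
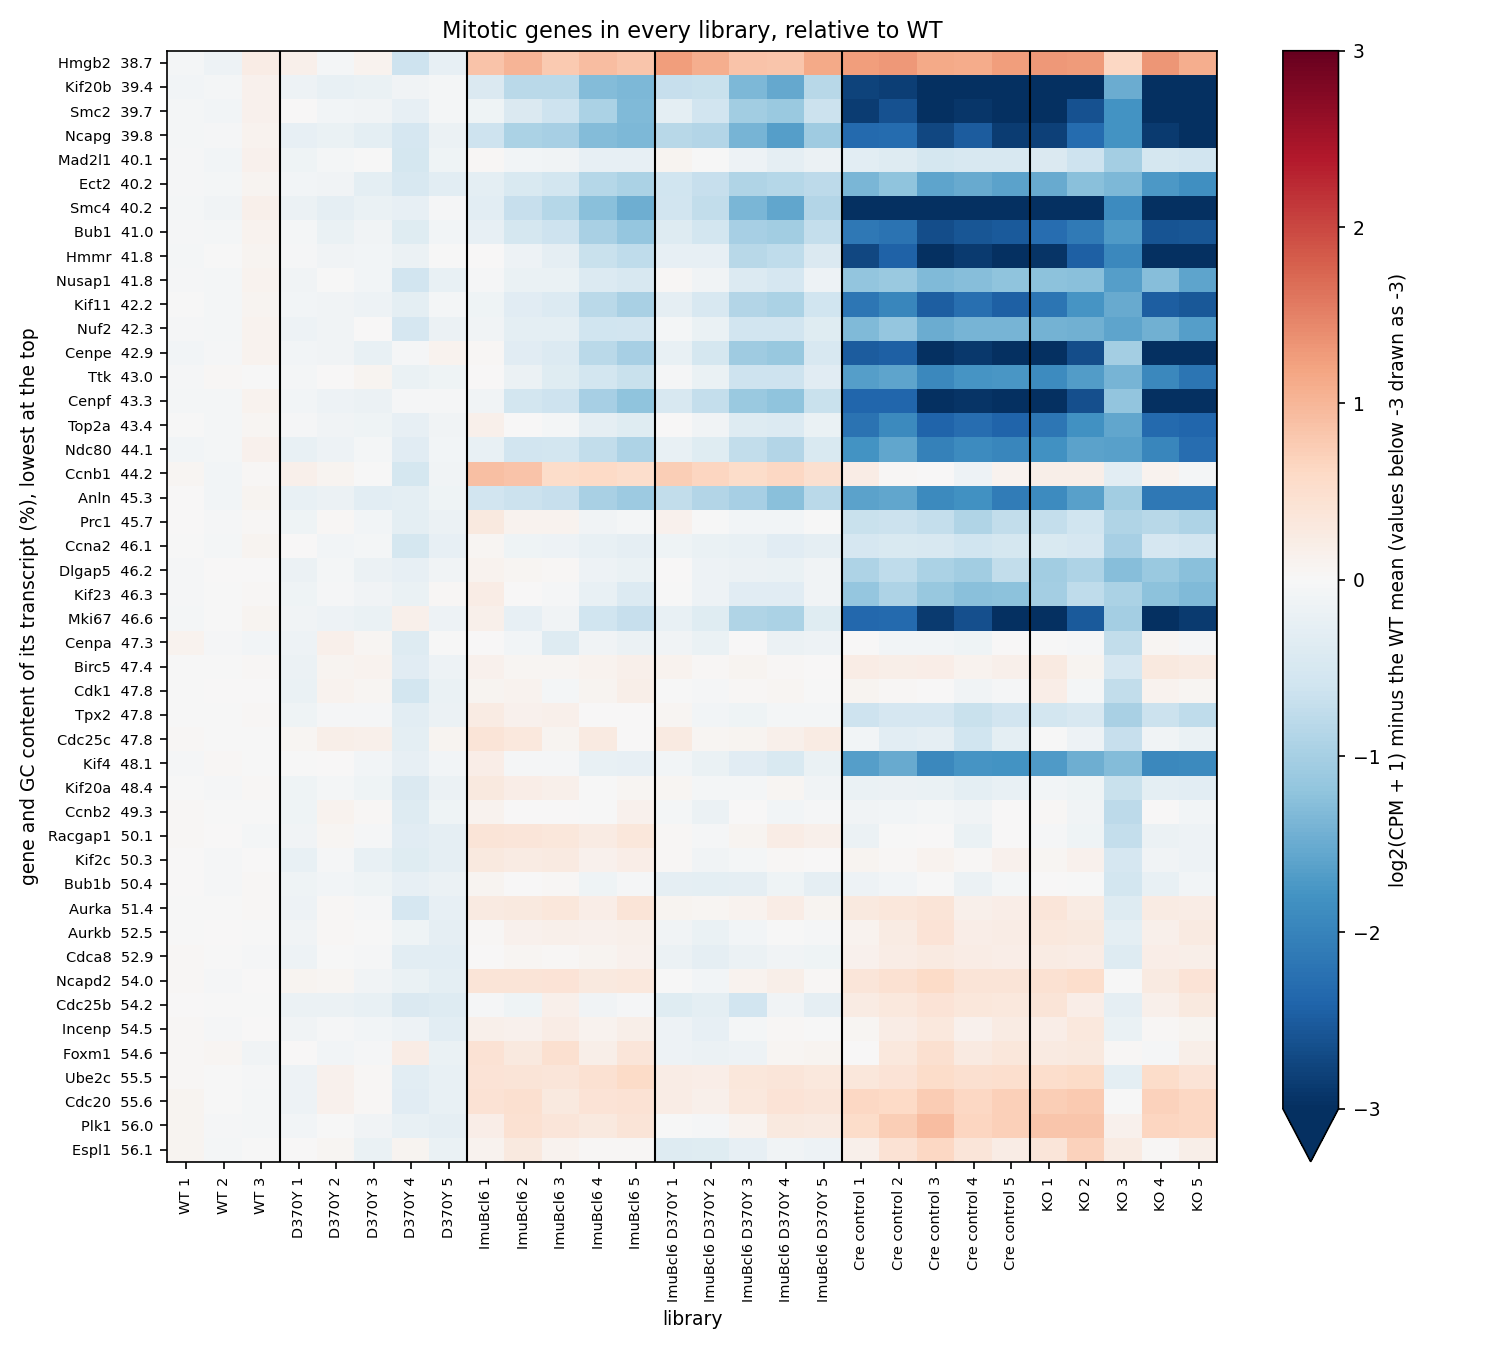
Log2(CPM + 1) of the 46 genes (rows, ordered by transcript GC content, printed beside each name in percent) in the 28 libraries (columns, by group) minus the WT mean of each gene. Most rows at the top are far below WT in all Cre control and KO libraries, least so in KO replicate 3, and moderately below WT in the ImuBcl6 groups. Hmgb2 and Ccnb1 are exceptions.

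ImuBcl6 cells differed from WT cells along the same split, by less. Against WT, 11 members were called higher and 14 lower (24.7% and 28.6% of all 10889 genes). Hmgb2 (0.89), Ccnb1 (0.69), Ube2c (0.44), Cdc20 (0.41), Ncapd2 (0.36), Foxm1 (0.34), Plk1 (0.34) and Racgap1 (0.34) were among those called higher, each without overlap (24.2% of all genes were separated upward). Ncapg was lowest at -1.05 ± 0.14 (SE, adjusted p = 0.000141 by limma), followed by Kif20b (-0.94), Smc4 (-0.92) and Anln (-0.79). All 14 lower calls were among the members below 46.4% GC, and 9 of the 11 higher calls among those above it. The difference rose with GC content across the 46 members (Spearman 0.71) and, less steeply, across all 10782 genes with a transcript model (Spearman 0.36). The split is thus not particular to the members. The counts changed with the processing: with the GC trend removed 17 members were called higher and 7 lower. Without WT replicate 3 the lower calls numbered 7, and without ImuBcl6 replicate 1 they numbered 18. Memory and naive B cell markers were called lower in 6 of 8, at a summed 259.1 to 324.1 CPM in ImuBcl6 and 405.9 to 449.7 CPM in WT libraries. Dark zone markers were called lower in 3 of 5, at 1475 to 1683 against 1824 to 1939 CPM. Myeloid markers were called higher in 3 and lower in 2 of 8 tested, the list of 9 being at 120.1 to 163.5 against 69.2 to 81.5 CPM. Their part in the mitotic values was not tested. The ImuBcl6 libraries all had the Xist pattern and the WT libraries all the Y pattern. The 2 groups also differed in depth, at 31.8 to 36.5 M reads in ImuBcl6 and 19.0 to 19.4 M in WT libraries. Genotype, sex and the set of libraries thus cannot be told apart here.

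This comparison shares its ImuBcl6 libraries with that of ImuBcl6 D370Y against ImuBcl6, so the 2 sets of values are not independent and are only set side by side. Foxm1 was 0.34 higher in ImuBcl6 than in WT and 0.41 lower in ImuBcl6 D370Y than in ImuBcl6. Ncapd2 was at 0.36 and -0.32, Racgap1 at 0.34 and -0.24, Kif2c at 0.22 and -0.24, and Incenp at 0.16 and -0.24 in the same order. Cdc25b (-0.03 and -0.29), Bub1b (-0.01 and -0.24), Cdca8 (0.06 and -0.23), Aurkb (0.12 and -0.21) and Espl1 (0.12 and -0.37) had no call in the first. The ImuBcl6 D370Y values of Foxm1 thus lay from 100.4 to 121.3 CPM, around the 106.5 to 118.3 CPM of WT, whereas those of Cdc25b, from 301.2 to 415.7 CPM, all lay below the 444.5 to 453.4 CPM of WT. Immediate early and handling genes were called higher in 7 of 11 in ImuBcl6 and in 9 of 11 in the Cre control against WT, at a summed 434.5 to 628.04 and 462.3 to 705.2 CPM against 248.2 to 262.8 CPM. Their part in the mitotic values was not tested.

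**Figure D4:**
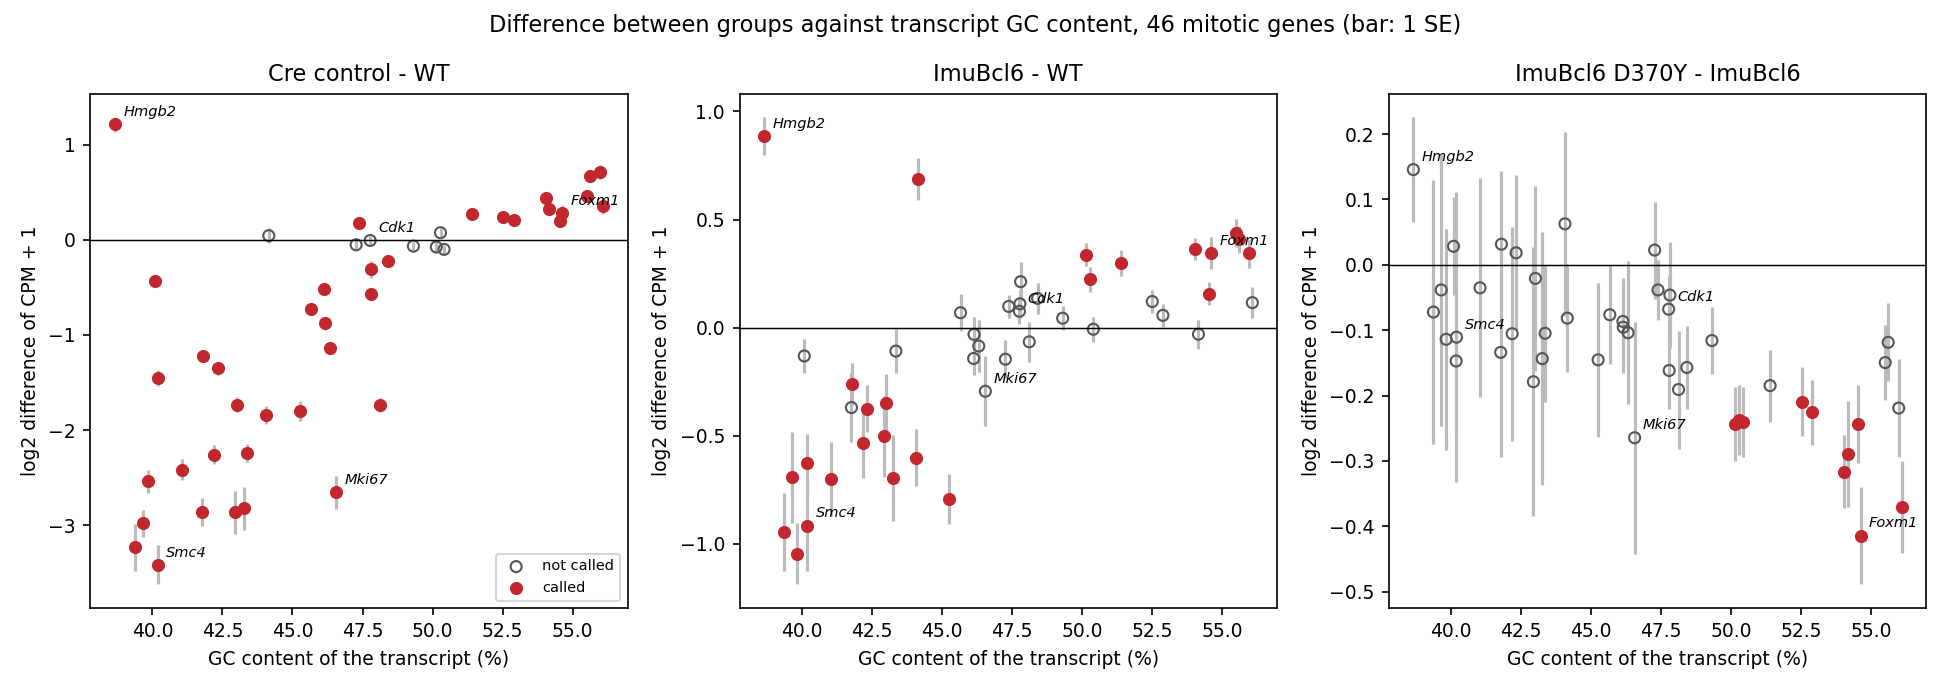
Log2 difference of CPM + 1 (vertical axes, a scale of its own in each panel, bars 1 SE) against transcript GC content in percent for the 46 genes in 3 comparisons, called genes filled. Differences rise with GC content in the left and middle panels, apart from Hmgb2, and the called genes of the right panel all lie at or above 50.1% GC.

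The same axis separated sets of groups, with WT and D370Y highest and Cre control and KO lowest. Libraries within a group also differed along it, by less in WT and D370Y than in the ImuBcl6 groups. The median deviation of the 23 lower GC members minus that of the 23 higher GC members, on the log2 scale over all 28 libraries, was 0.79 to 0.94 in WT and 0.75 to 1.02 in D370Y libraries. It was -0.03 to 0.52 in ImuBcl6, 0.07 to 0.65 in ImuBcl6 D370Y and -1.25 to -0.78 in Cre control libraries. In KO libraries it ran from -1.45 to -0.89, with KO replicate 3 apart at -0.06. The same measure over all genes ran from -0.59 to -0.44 in the Cre control and from 0.44 to 0.58 in WT libraries. The 46 genes together were at 11267 to 12007 CPM in WT and 6821 to 7426 CPM in Cre control libraries.

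Other genes of the pathway were taken from lists that hold none of the 46. Of 77 other mitotic genes, 8 were called lower and 0 higher in ImuBcl6 D370Y against ImuBcl6 cells (5.38% of all genes were called lower): Cdca5 (sororin, which protects cohesion, -0.27 ± 0.05 SE, adjusted p = 0.00687 by limma), Kif18b, Nek2, Gtse1, Ncaph, Ccnf and 2 more, with log2 differences from -0.31 (Cit) to -0.19 (Ccnf). Their median was -0.12, as for the 46 members, and 68 of 77 were below 0. Of 21 regulators (the MuvB core, B-MYB, pocket proteins, E2F and NF-Y factors), 3 were called lower: the cell cycle repressors E2f8 (-0.40 ± 0.05 SE, adjusted p = 0.00142 by limma) and E2f7, and Mybl2, which encodes B-MYB. Of 20 genes of the G1/S transition, 2 were called lower, Uhrf1 and Cdc6, with a median of -0.11. In D370Y against WT cells and in KO against Cre control cells 0 genes of these 3 lists were called. In D370Y the lists had 11 of 77, 5 of 21 and 7 of 20 genes at an unadjusted p below 0.05, where 18.3% of all genes passed that limit. In KO they had 0, 3 and 0, where 9.05% passed. Medians were -0.11, -0.05 and -0.13 with D370Y and -0.07, -0.06 and -0.07 with KO, beside -0.14 and -0.08 for the 46 members.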

How the data were processed

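RNA of germinal center B cells was measured by RNA-seq in 28 libraries of 6 genotype groups. The authors deposited 1 table of CPM values (read counts scaled to the library total) per library. The submitters' processing notes name STAR and the mm10 build, and the counting tool and its strand setting are not given in the sources used here, so reads of overlapping or antisense genes cannot be told apart. A stranded TruSeq kit is named, per the labels' protocols, for the KO and Cre control libraries only. Low CPM values were whole multiples of the value of 1 read (100% of values within 0.01 read), which gave the whole reads used for edgeR and DESeq2. Depth was 19.0 to 37.7 M reads on listed genes, and floors of 3 reads cover counting error only.

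Values were tested as log2(CPM + 1) with limma (3.58.1, R 4.3.3, trended and robust variance, two-sided), on genes at 1 CPM or more in a number of libraries no smaller than the size of the smallest group. P-values were adjusted by Benjamini-Hochberg over all genes tested, and a gene was called at an adjusted p below 0.05. Each D370Y group was compared with its own control, the KO group with the Cre control, and control groups with WT. 2 interaction terms tested differences between allele effects. A log2 difference on this scale understates changes of low genes.

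Alternatives were no filter, pseudocounts of 0.1 and 5, edgeR (4.0.16) and DESeq2 (1.42.0) on whole reads, CPM over listed genes, TMM factors, 1 fit of all libraries, library weights, a replicate block and leaving out each library. For KO against Cre control the sex chromosome pattern was also added as a covariate. The removal of the trend on transcript GC content, and the division of members by it, were chosen after seeing the data. GC content came from GENCODE M21 transcripts and promoters from RefSeq (GRCm38.p6). Members and lists were chosen with earlier results of these data known. Values in every library are given for 8 well-known regulators and markers (Mki67, Top2a, Cdk1, Ccnb1, Plk1, Aurkb, Foxm1 and Cdc20), for each member called in an allele comparison and for the 2 highest and 2 lowest differences of each. Smc4, Kif20b and values repeated in further groups were added after they were seen. Of the other lists up to 6 called genes, by adjusted p, are named. Fits were tested on simulated data.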

Additional observations from a re-analysis of the deposited data

Results flagged for a closer look

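Of 125 sets of values, each from 1 group of 5 libraries, 9 had a library far from the other 4 by Dixon's criterion, and chance flags about 1 in 20. A set held the CPM values of 1 member, or the summed CPM or the GC measure of the members. All 9 flagged sets were CPM values of 1 member. KO replicate 3 gave 4 of them. Cdc20 was at 199.5 CPM there against 312 to 346 CPM in the other KO libraries, Cdca8 at 161.2 against 239.5 to 253 CPM and Racgap1 at 132.4 against 192 to 211 CPM, while Mki67 was at 887.7 against 169 to 316 CPM. D370Y replicate 4 gave 3, with Cdc25c at 28.2 against 36.4 to 39.7 CPM and Mad2l1 at 138.0 against 184 to 198 CPM, and Mki67 at 2005.7 against 1576 to 1669 CPM. Espl1 was at 133.6 CPM in ImuBcl6 replicate 2 and at 111 to 118 CPM in the other ImuBcl6 libraries. Bub1b was at 267.3 CPM in ImuBcl6 D370Y replicate 4, above 239 to 244 CPM in the other libraries of its group.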

How the results depend on the processing

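No recomputed value that passed the threshold changed sign, but values near 0 did: the ImuBcl6 against WT median of -0.03 was 0.075 with the GC trend removed and the replicate block, and that of the D370Y interaction ran from -0.040 to 0.063 without 1 library. For D370Y against WT, 0 members and 376 genes were called. The genes numbered 219 with no filter, 659 by DESeq2, 249 with all 28 libraries in 1 fit and 973 with library weights. The members numbered 2 by DESeq2, 3 with library weights and 1 with the GC trend removed. Leaving out 1 library gave 124 to 473 genes, 0 to 2 members and a median of -0.16 to -0.09. For ImuBcl6 D370Y against ImuBcl6 (882 genes, 10 members), DESeq2 called 1378 genes and the fit with the GC trend removed 1671. All 28 libraries in 1 fit called 3 members. Leaving out 1 library gave 434 to 1016 genes and 5 to 11 members, with a median of -0.19 to -0.05. For KO against Cre control (146 genes, 0 members), the genes numbered 86 with no filter, 238 by edgeR, 455 by DESeq2, 236 with CPM over listed genes, 243 with TMM factors, 279 with all 28 libraries, 1111 with library weights and 295 with the GC trend removed. Library weights called 1 member, Dlgap5. Leaving out 1 library gave 87 to 449 genes and 0 members. For ImuBcl6 against WT (11 higher, 14 lower), 9 were lower with all 28 libraries in 1 fit. With the GC trend removed 17 were higher and 7 lower, and leaving out 1 library gave 7 to 18 lower. The Cre control median of -0.47 became -0.11 with the GC trend removed and -0.51 to -0.42 without 1 library. The D370Y interaction called 74 genes, 49 with no filter, 184 by DESeq2, 197 with library weights and 31 to 110 without 1 library. The KO interaction called 16 genes, 32 at pseudocount 5, 5 by edgeR, 43 by DESeq2, 9 with TMM factors, 211 with library weights, 7 with the GC trend removed and 7 to 63 without 1 library, and its member median was 0.15 by DESeq2. The causes of these shifts were not tested. All members were above the 3-read floor, which covers counting error only.

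Same-numbered libraries did not deviate together in a uniform way. Correlations over 9060 genes ran from -0.06 to 0.23 for D370Y and WT and from -0.23 to 0.23 for KO and Cre control. For the ImuBcl6 groups they ran from -0.32 to 0.57, with 0.57 in replicate 1 and 0.39 in replicate 4. Correlations this mixed do not settle whether the numbers pair the libraries. With a replicate block D370Y against WT called 764 genes and 1 member with a median of -0.069. With the block and the GC trend removed together it called 1137 genes and 2 members with a median of -0.047. In that last fit ImuBcl6 against WT had 19 higher and 6 lower members and a median of 0.075, and Cre control against WT a median of -0.10.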
